A study of Mus musculus with 24 samples.

Results

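The cytochrome P450 genes were taken as every gene symbol made of Cyp, a family number, a subfamily letter or letters and a gene number, which gave 94 of 43280 symbols. Measured values played no part in that choice. Of the 94 genes, 31 had enough counts to be tested and 63 did not. A further 29 symbols that start with Cyp, such as Cyp51 and pseudogenes, fell outside the pattern.

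P450 enzymes are haem proteins that insert an oxygen atom into their substrates, with electrons handed over by a reductase. Families CYP1 to CYP3 handle many drugs and dietary chemicals, CYP4 enzymes oxidise fatty acids and eicosanoids, and other families make or clear sterols, bile acids, vitamin D and retinoic acid. The liver is the main site for most of them, and in the gut they are best known from the absorptive cells that face the lumen.

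Poly(A) RNA from the distal colon of female SCID mice (C.B-17/Icr-scid/scid, 7 weeks of age) was sequenced in 24 libraries, 4 in each of 6 groups. SCID mice lack mature T and B cells. The Normal group was untreated. In the other 5 groups, CD4+ T cells of BALB/c mice, activated in culture, were injected on day 0, a transfer that leads to colitis, and the colon was taken on day 28. Vehicle mice were given 0.5% methylcellulose. MEKi 0.3 and MEKi 1 mice were given an inhibitor of the kinase MEK in enteric microparticles by mouth at 0.3 or 1 mg/kg, daily from day 17 to day 27. Isotype and anti-TNF mice were injected with a control antibody or an antibody to TNF at 0.1 mg per mouse every 4 days from day 17. There was no group on drug-free microparticles. The labels do not say that the replicates of a group were separate animals, so p-values measure the spread between these libraries.

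Library totals ran from 3052940 to 10587555 counts, with the antibody groups the deepest. The T cell genes Cd3d and Cd3e were at 0 counts in the Normal libraries and present in the other 5 groups. A table of the whole series gives 16 of the 24 libraries other names than the samples' own files do. The own files were used: by them, Normal libraries held 35 to 66 counts of 5 T cell genes and Vehicle libraries 418 to 676, while the table's names gave 35 to 469 and 55 to 487. By the own files, MEKi 0.3 libraries held 408 to 487 of these counts and MEKi 1 libraries 126 to 447, which overlap Vehicle. T cell counts thus do not show which name holds among the Vehicle and MEKi libraries. Counts also do not settle which name holds for 4 antibody libraries (anti-TNF replicates 1 and 2, and replicates 3 and 4 of Isotype). Antibody results are therefore given with and without them. Pancreas transcripts reached summed levels of 5690 CPM (counts scaled to a common library size) in Vehicle replicate 4 and 4160 CPM in Isotype replicate 1.

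The genes with the largest fitted changes belong to the Cyp2c, Cyp2d and Cyp2f subfamilies. A feature of nearly all P450 genes is the stretch of coding sequence around the cysteine that binds the haem iron, which a search of the GENCODE M21 transcripts found in 86 of the 94 genes. It is shown for 10 genes of these subfamilies and for Cyp2j6, which rose, as 30 bases of coding strand, 5′ to 3′, with the cysteine codon in capitals, because it also shows how alike the gene copies are.
Cyp2c68: ttctcagcaggaaaacggattTGTgtggga
Cyp2c40: ttctcagcaggaaaacggattTGTgtggga
Cyp2c67: ttctcagcaggaaaacggattTGTgtggga
Cyp2c69: ttctcagcaggaaaacggattTGTgtggga
Cyp2c55: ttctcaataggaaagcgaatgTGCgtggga
Cyp2d10: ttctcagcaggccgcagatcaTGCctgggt
Cyp2d34: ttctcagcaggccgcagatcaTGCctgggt
Cyp2d9: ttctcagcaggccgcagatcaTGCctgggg
Cyp2d12: ttttcagcaggccgcagatcaTGCctgggg
Cyp2f2: ttttcggctggacgtcgactgTGTctggga
Cyp2j6: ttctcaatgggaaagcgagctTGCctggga

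Cyp2c40, Cyp2c67, Cyp2c68 and Cyp2c69 were identical over these 30 bases, and Cyp2c55 matched them at 24. Cyp2d34 was identical to Cyp2d10, while Cyp2d9 matched Cyp2d10 at 29 bases and Cyp2d12 at 28. Over whole transcripts, 72.1% of the 50-base windows of Cyp2c40 also occur in another gene, against 54.8% for Cyp2c69, 52.8% for Cyp2c67, 43.3% for Cyp2c68, 40.5% for Cyp2d10, 37.2% for Cyp2d11 and 29% for Cyp2d9. How reads shared between copies were counted is not given in the sources used here, so the split of counts among these 7 genes is uncertain. The same doubt holds for Cyp4f16, at 26.5% with Cyp4f37 as its main partner, and to a lesser degree for Cyp2d26, at 10.5%. For Cyp2d12 the share was 7.11%, for Cyp2d34 5.14% and for Cyp2c55 0.514%, and Cyp2f2 shared no window.

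In the Normal colon the P450 genes together made up 2119 ± 302 CPM (SD, n = 4). Compared per kilobase of exon, the highest levels were those of Cyp2d34 (182 CPM per kb), Cyp2d10 (106), Cyp2c55 (81.8), Cyp2f2 (75.1) and Cyp4f14 (66.3). Cyp2d34 and Cyp2d10 belong to the mouse Cyp2d cluster, Cyp2c55 oxidises arachidonic and linoleic acid, Cyp2f2 is known from airway club cells, and Cyp4f14 hydroxylates leukotriene B4. In Vehicle the sum was 528.9 ± 57.4 CPM (SD, n = 4) and the order per kilobase was Cyp2d34 (51.8 CPM per kb), Cyp4f14 (32.1), Cyp4f40 (23.1), Cyp4f16 (14.9) and Cyp2j6 (13.9). Cyp2d34 thus led in both groups, while Cyp2c55 and Cyp2f2 were not among the first 5 in Vehicle.

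The question of the first comparison was how the P450 genes differ between the colon after T cell transfer and the untreated colon. In Vehicle against Normal, 26 of the 31 tested genes changed, 23 lower and 3 higher (edgeR quasi-likelihood test, Benjamini-Hochberg adjusted p under 0.05 over 14773 genes). Of all genes tested, 46.4% changed, 23.3% lower and 23.1% higher. The median log2 fold change of the tested P450 genes was -2.02, against 0.00 for all genes. Each of the 6 tested Cyp2c genes and 7 tested Cyp2d genes fell. Cyp2c44, Cyp2c69, Cyp2d11 and Cyp26b1 had enough counts to be tested largely through the Normal libraries. For them a fall was favoured in advance in every comparison with Normal. Similar gene copies are also not independent of each other. RNA of bulk tissue does not separate fewer cells of a type from less RNA per cell.

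**Figure D1:**
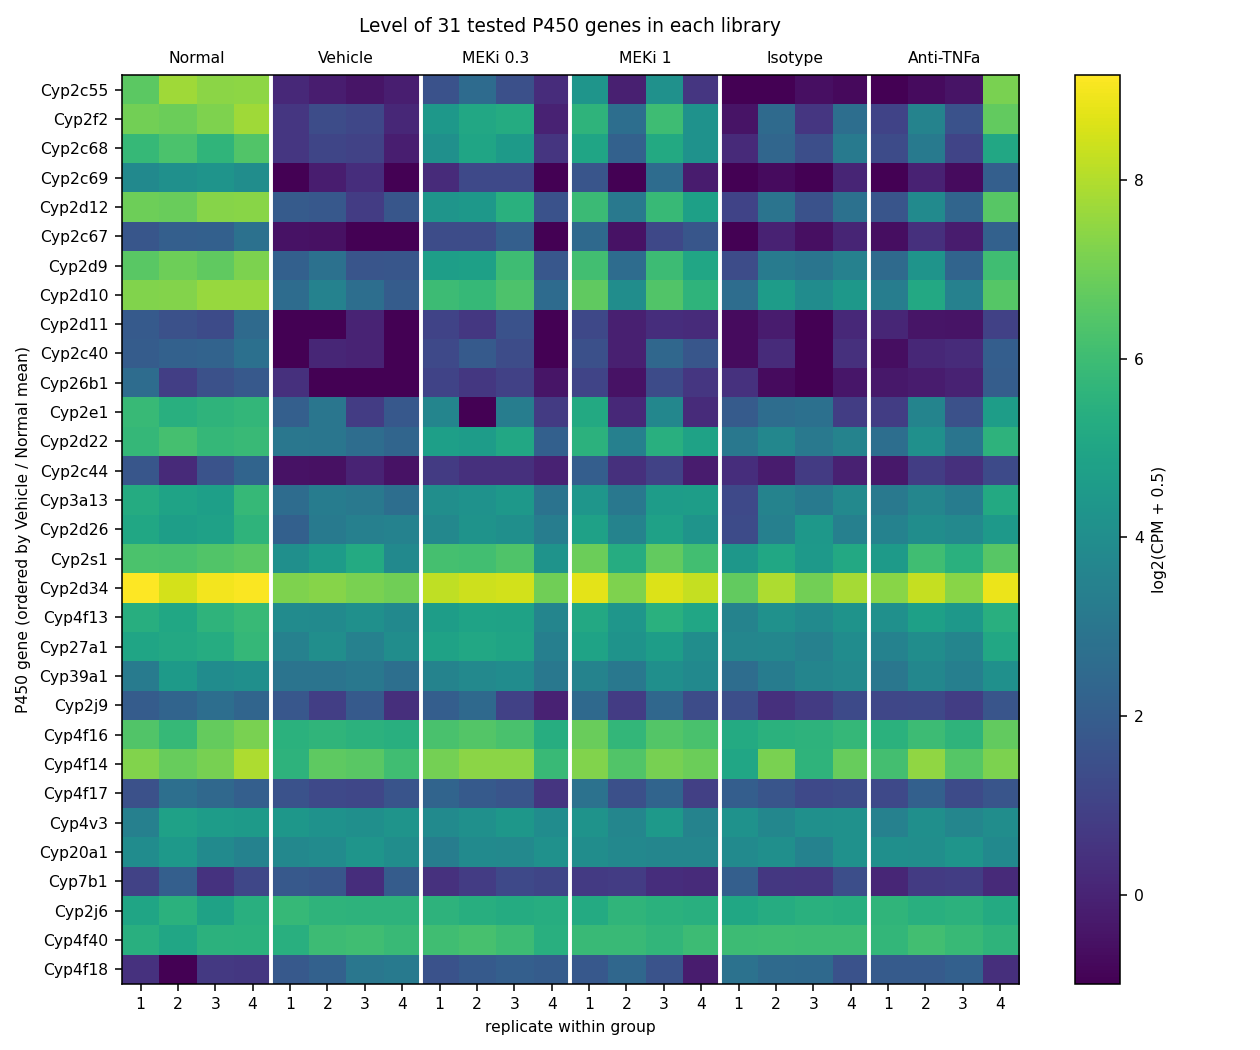
Level of the 31 tested P450 genes (rows, ordered by the ratio of the Vehicle mean to the Normal mean) in the 24 libraries (columns, replicates 1 to 4 of each group), as log2(CPM + 0.5) on the colour scale. The upper rows are bright in the 4 Normal libraries and dark in Vehicle and Isotype, and anti-TNF replicate 4 is brighter than the other 3 anti-TNF libraries in most of them.

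Cyp2c55 (chromosome 19, 39007019 to 39042693, plus strand, mm10) had the largest fall. Its level was 98.5, 213, 168 and 174 CPM in the Normal libraries and 0.618, 0.379, 0.249 and 0.404 CPM in Vehicle. Every Vehicle library lay far below every Normal library, with means 396-fold apart, and 8 counts remained in the whole Vehicle group against 2801 in Normal. The fitted log2 fold change was -8.53 ± 1.94 (SE, adjusted p = 0.00179 by edgeR).

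The other Cyp2c genes, which metabolise drugs and fatty acids, followed. Cyp2c68 (chromosome 19, 39688834 to 39741054, minus strand) was at 55.6, 77.1, 49.5 and 85.8 CPM in Normal and 1.03, 1.7, 1.49 and 0.404 CPM in Vehicle, a log2 fold change of -5.83 ± 1.14 (SE, edgeR adjusted p = 0.000529). Cyp2c69 was at 13.8 to 18.8 CPM in Normal and 0 to 0.746 CPM in Vehicle. Neither gene's groups overlapped. For Cyp2c67, with 75 counts in Normal and 2 in Vehicle, the ratio was 40.6 (95% counting interval 10.9 to 341). Cyp2c40 and Cyp2c44, at group means of 4.5 and 2.6 CPM in Normal, fell as well, and 9 Cyp2c genes were too low to test.

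In the Cyp2d subfamily, the mouse relatives of the human drug-metabolising CYP2D6, the fitted log2 fold changes ran from -1.81 to -5.73. Cyp2d10 (chromosome 15, 82402846 to 82407195, minus strand) was at 154, 156, 197 and 194 CPM in Normal and 5.56, 11, 5.97 and 3.43 CPM in Vehicle. Its log2 fold change was -4.74 ± 0.86 (SE, edgeR adjusted p = 0.000279), and the groups did not overlap. Cyp2d12 went from 141 ± 25.9 to 2.6 ± 0.924 CPM and Cyp2d9 from 117 ± 21.8 to 3.98 ± 1.73 CPM (SD, n = 4 in each). Cyp2d34 (chromosome 15, 82615965 to 82620946, minus strand) was at 580, 367, 515 and 561 CPM in Normal and at 147, 161, 141 and 126 CPM in Vehicle. That is 3.52-fold lower (log2 fold change -1.81 ± 0.38, SE), against 54.3-fold for Cyp2d12. Cyp2d22, at 54.8 to 72.1 CPM in Normal, was at 4.44 to 7.62 CPM in Vehicle, and Cyp2d26 went from 25.8 to 48.7 CPM down to 3.91 to 10.9 CPM.

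Cyp2f2 (chromosome 7, 27119909 to 27133660, plus strand), which bioactivates naphthalene in the airway, was at 130, 118, 149 and 211 CPM in Normal and 1.03, 2.08, 1.74 and 0.606 CPM in Vehicle. The means were 111-fold apart without overlap, with a log2 fold change of -6.78 ± 1.43 (SE, edgeR adjusted p = 0.000995). Cyp2s1, an extrahepatic enzyme of epithelia, was at 78.3, 75.8, 84.7 and 94.7 CPM in Normal and 16.1, 23.7, 37 and 13.7 CPM in Vehicle. Cyp3a13, the Cyp3a gene of the mouse intestine and the only one of 7 Cyp3a genes with enough counts, went from 26.7 to 56.5 CPM down to 5.56 to 9.28 CPM.

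Cyp2e1, which oxidises ethanol and is abundant in liver and fat cells, was at 56.9, 42.6, 48.8 and 53.2 CPM in Normal and 3.71, 7.39, 1.24 and 3.03 CPM in Vehicle (log2 fold change -3.67 ± 1.08, SE, edgeR adjusted p = 0.0096). Adipocyte markers moved with it: the sum of 6 markers was 172 to 211 CPM in Normal and 14.9 to 25.9 CPM in Vehicle. In MEKi 0.3 replicate 2, Cyp2e1 was at 0 CPM and the 6 markers summed to 7.13 CPM. There Adipoq, Plin1 and Lep were at 0, Cfd at 0.21 CPM and Cidec at 1.68 CPM, while Plin4, at 5.25 CPM, lay above its Vehicle range of 1.99 to 4.17 CPM. The part of fat tissue in the Cyp2e1 result was not tested.

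Enzymes of sterols and retinoids were also among the genes that fell. Cyp27a1, the mitochondrial sterol 27-hydroxylase, was at 31.3, 34.5, 39 and 54.3 CPM in Normal and 10.5, 15.9, 10.7 and 15.5 CPM in Vehicle. Cyp39a1, a 24-hydroxycholesterol 7-alpha-hydroxylase, went from 15.8 ± 5.74 to 7 ± 0.774 CPM (SD, n = 4 in each). Cyp26b1, which degrades retinoic acid, went from 1.34 to 5.61 CPM to 0 to 0.823 CPM. Cyp7b1, the oxysterol 7-alpha-hydroxylase, was at 0.92 to 3.69 CPM in Normal and 0.746 to 3.43 CPM in Vehicle, and its change did not pass the test.

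The Cyp4f subfamily, which omega-hydroxylates fatty acids and leukotrienes, was split. Cyp4f13, Cyp4f16 and Cyp4f14 fell, with log2 fold changes of -1.60, -1.09 and -1.05. The last of these was at the threshold (edgeR adjusted p = 0.0494) and missed it in 7 of 8 fits that left out 1 library. Cyp4f18, which is known from neutrophils and other myeloid cells, rose from 0.862, 0, 1.1 and 1.09 CPM to 3.09, 3.98, 7.71 and 8.68 CPM (log2 fold change 2.79 ± 0.59, SE, edgeR adjusted p = 0.000576). No Vehicle library overlapped the Normal libraries. Summed neutrophil markers were 1.34 to 3.23 CPM in Normal and 437 to 1010 CPM in Vehicle, and their part in the Cyp4f18 result was not tested.

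Cyp2j6, of a subfamily known for epoxidising arachidonic acid, was at 31.3, 44.9, 28.5 and 42.6 CPM in Normal and 56.4, 49.4, 47.5 and 47.7 CPM in Vehicle. It rose by 0.46 ± 0.15 on the log2 scale (SE, edgeR adjusted p = 0.0138). Cyp4f40 rose by a similar amount (0.47 ± 0.16, adjusted p = 0.0172 by edgeR), from 32.5 to 45.8 CPM to 42.2 to 67.1 CPM, with overlapping groups. Cyp20a1, an orphan P450, was at 10.9 to 21.5 CPM in Normal and 12.8 to 19.6 CPM in Vehicle. Cyp4v3, a fatty acid hydroxylase, was at 10.3 to 27.8 and 16.2 to 20.6 CPM. Neither passed the test, and the same holds for Cyp2j9 and Cyp4f17.

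**Figure D2:**
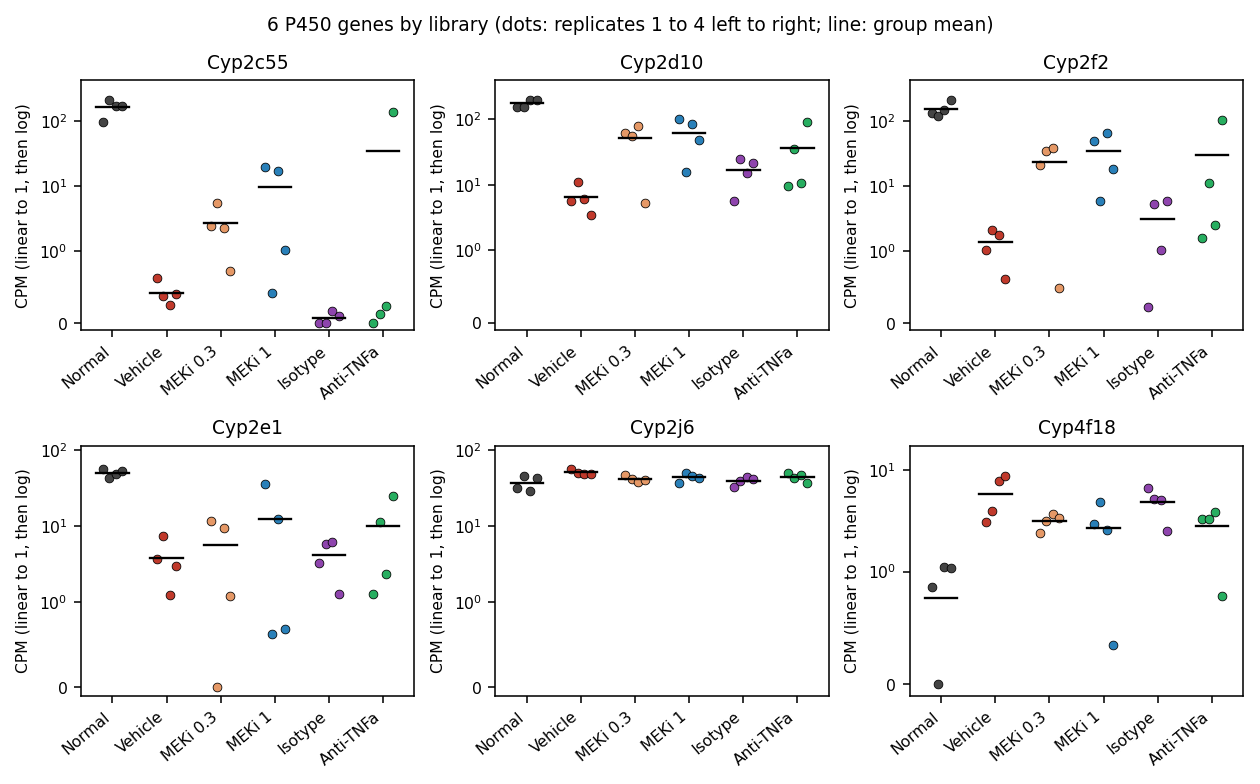
CPM of Cyp2c55, Cyp2d10, Cyp2f2, Cyp2e1, Cyp2j6 and Cyp4f18 in each library (dots, replicates 1 to 4 from left to right) with the group mean (line), on an axis that is linear up to 1 CPM and logarithmic above. Cyp2c55 lies at 98.5 to 213 CPM in Normal and below 1 CPM in Vehicle, Cyp2j6 stays between 28.5 and 56.4 CPM in all 24 libraries, and Cyp4f18 has its lowest group mean in Normal.

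Markers of mature surface colonocytes moved with the P450 genes, while the summed markers of all epithelium overlapped between the groups. The sum of 6 surface colonocyte markers was 8590 to 10400 CPM in Normal and 1870 to 2500 CPM in Vehicle. Of the 6, Slc26a3, Car4, Car1, Aqp8 and Guca2a fell and Krt20 rose. The sum of 8 markers of all epithelium was 13700 to 18300 CPM in Normal and 13700 to 20300 CPM in Vehicle. Krt8 and Krt19 had the highest means of the 8, at 5920 and 4250 CPM in Normal. Of the 8, 1 passed the test as higher and 1 as lower. Cdh1 was at 1000 to 1060 CPM in Normal and 570 to 643 CPM in Vehicle, and Cldn7 at 660 to 907 and 1070 to 1350 CPM. The part of surface colonocytes in the P450 result was not tested. Liver is another tissue rich in these enzymes: the sum of 8 liver markers was 35.5 to 56.1 CPM in Normal and 2.47 to 4.47 CPM in Vehicle, and both tested markers, Alb and Ttr, fell. Apoa2, Serpina1a and Fgb were at 0 in all Normal libraries. Smooth muscle and glia markers moved too: 5 smooth muscle markers summed to 5360 to 6840 CPM in Normal and 1080 to 2570 CPM in Vehicle, each lower, and 4 glia markers to 12.2 to 21.5 CPM and 2.49 to 6.59 CPM. The part of these tissues in the P450 result was not tested.

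**Figure D3:**
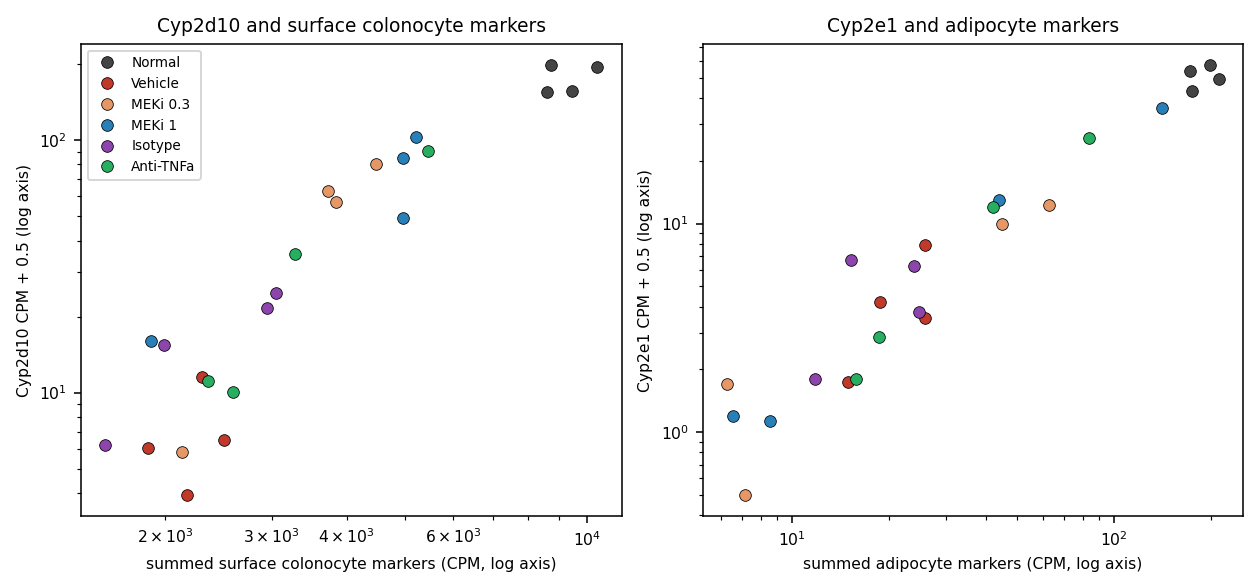
Cyp2d10 against the summed surface colonocyte markers (left) and Cyp2e1 against the summed adipocyte markers (right), 1 dot per library, coloured by group, on log axes with 0.5 CPM added to the gene. Normal libraries sit at the upper right in both panels, with marker sums of 8590 to 10400 CPM (left) and 172 to 211 CPM (right).

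Isotype against Normal gave a second view of colitis that shares the Normal libraries. Here 24 of the 31 tested P450 genes changed, 22 lower and 2 higher, where 41.2% of all genes changed, 20.3% lower and 20.9% higher. The 2 higher genes were Cyp4f18 (log2 fold change 2.50) and Cyp4f40 (0.61). Cyp2c55 had 2 counts in Isotype against 2801 in Normal, a ratio of 2720 (95% counting interval 752 to 22500). Cyp2d10 was at 5.71, 24.3, 14.9 and 21.1 CPM in Isotype and Cyp2f2 at 0.22, 5.29, 1.04 and 5.88 CPM, each below every Normal library. Cyp2j6 did not pass the test here (log2 fold change 0.10 ± 0.15, SE). Without the 4 antibody libraries of unsettled name, which left Isotype replicates 1 and 2, 22 genes were called. With only the libraries on which both namings agree, 3 were called. That fit compared replicates 1 and 2 of Isotype with replicates 1 and 2 of Normal. The naming and the loss of libraries cannot be told apart there, and the share of all genes called is not given for these fits.

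Treatment with the MEK inhibitor at 1 mg/kg was compared with Vehicle. Of the 31 tested P450 genes, 10 rose and none fell (edgeR, adjusted p under 0.05), where 10.6% of all genes changed and 6.08% rose. DESeq2 called 16 and limma-voom 21, each higher, and 22 had an unadjusted edgeR p under 0.05. The 10.6% is for the adjusted edgeR test only, and no share of all genes is given for these other counts. The 10 genes were Cyp2c44, Cyp2c67, Cyp2c68, Cyp2d9, Cyp2d10, Cyp2d12, Cyp2d22, Cyp2f2, Cyp2s1 and Cyp4f13. Their number depended on the libraries used: it was 0 when replicate 1 or 4 of Vehicle or replicate 1 or 3 of MEKi 1 was left out. Leaving out replicate 2 of Vehicle gave 3, replicate 3 of Vehicle 5, and replicate 2 of MEKi 1 gave 16. Without the 2 libraries rich in pancreas transcripts it was 1. The share of all genes called is not given for these fits.

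Cyp2d10 was at 102, 15.5, 84.7 and 48.8 CPM in MEKi 1, each above the highest Vehicle library at 11 CPM (log2 fold change 3.26 ± 0.83, SE, edgeR adjusted p = 0.0252). The level in Normal was 175 CPM, so the MEKi 1 mean of 62.8 CPM was 35.8% of it. Cyp2s1 was at 118, 38.8, 107 and 68.1 CPM, which is 99.7% of its Normal mean (log2 fold change from Vehicle 1.88 ± 0.46, SE, adjusted p = 0.0205 by edgeR). Cyp2f2 was at 49.1, 5.85, 64 and 18 CPM and Cyp2c68 at 31.1, 3.97, 36.2 and 18 CPM, or 22.5% and 33.3% of Normal. Cyp2c67 had 38 counts in MEKi 1 and 2 in Vehicle, a ratio of 22.7 (95% counting interval 5.87 to 194). Cyp2d10, Cyp2s1, Cyp2f2 and Cyp2c68 were lowest in replicate 2. It held summed surface colonocyte markers of 1890 CPM against 4950 to 5210 CPM in the other MEKi 1 libraries. Its neutrophil markers summed to 145 CPM against 16.9 to 96.5 CPM, and its T cell markers to 93.3 against 43.6 to 77.8 CPM. The part of these cells in the P450 levels was not tested.

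Cyp2c55 did not pass the test at 1 mg/kg. Its levels were 19.4, 0.418, 17.1 and 1.04 CPM, so 2 libraries lay well above and 2 near the Vehicle libraries, and the mean was 5.82% of Normal. Cyp2d34, at 435, 149, 395 and 308 CPM, overlapped Vehicle in replicate 2 and missed the threshold (adjusted p = 0.0521, edgeR). Cyp4f18 was at 2.97, 4.8, 2.55 and 0.346 CPM (log2 fold change -1.06 ± 0.50, SE, not passing). Cyp2j6 was at 37 to 49.7 CPM, with a log2 fold change of -0.20 ± 0.15 (SE).

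**Figure D4:**
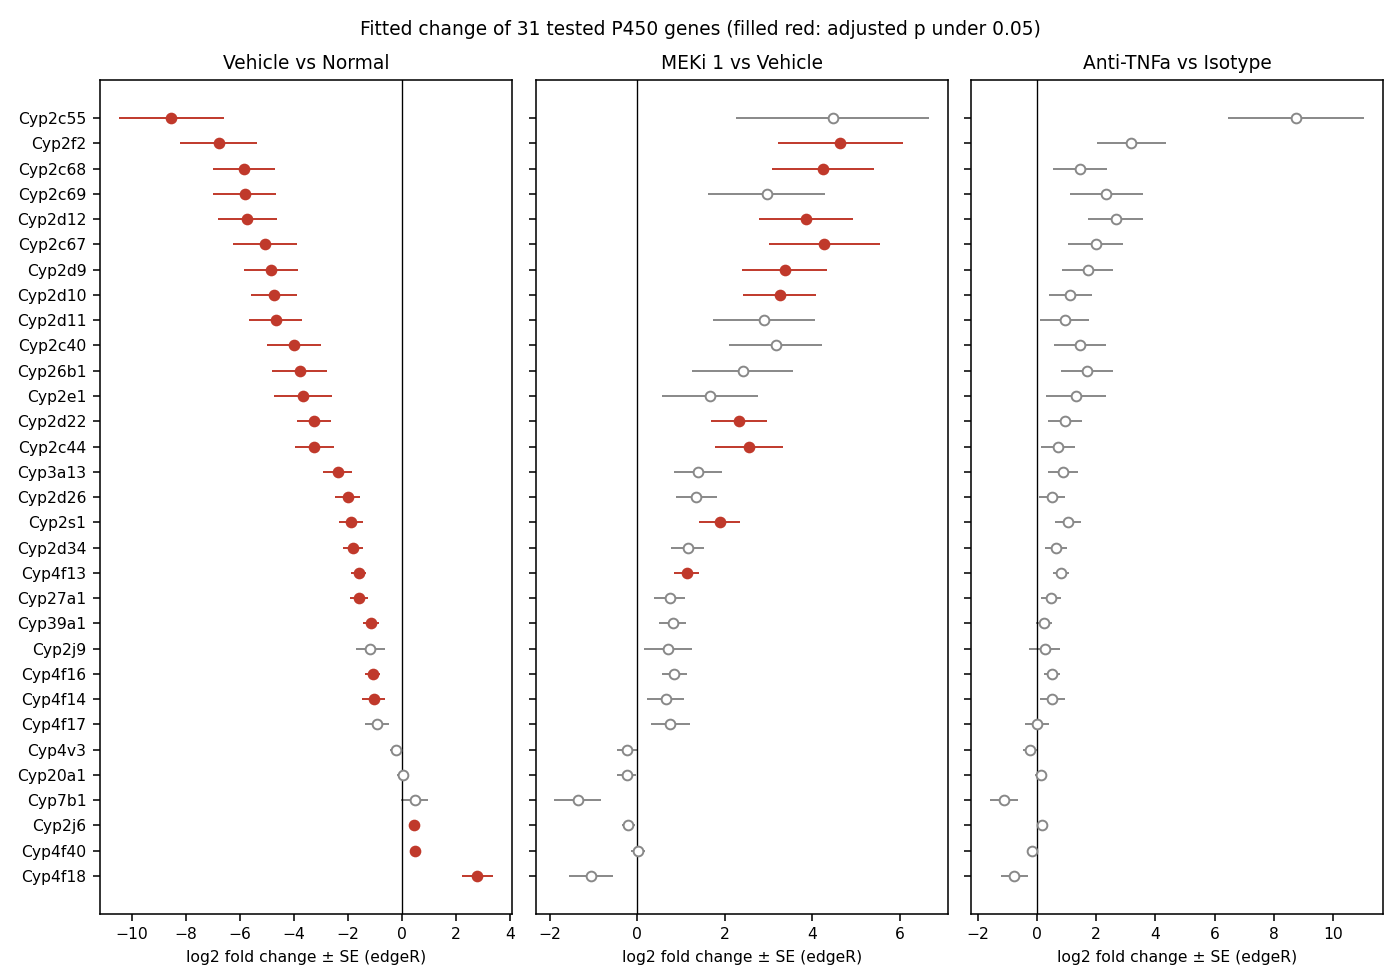
Fitted log2 fold change with its SE for the 31 tested P450 genes in Vehicle against Normal, MEKi 1 against Vehicle and anti-TNF against Isotype, with filled red points where the edgeR adjusted p is under 0.05. Red points number 26, 10 and 0 in the 3 panels, whose horizontal axes differ in range, and fitted values against groups with 2 counts depend on the prior count of the fit.

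At 0.3 mg/kg none of the 31 tested genes passed in edgeR, where 0.00677% of all genes changed. DESeq2 called 3, limma-voom 14, and 15 had an unadjusted edgeR p under 0.05. For these counts no share of all genes is given, and the 0.00677% is for the adjusted edgeR test only. Deviations of same-numbered MEKi 0.3 and Vehicle libraries correlated weakly, at 0.125 to 0.184, and the replicate number was added as a block. Over all 24 libraries the block gave 0 P450 genes. In a fit of these groups alone, which tested 21 P450 genes, 3 passed, all higher, where 2.97% of all genes did. They were Cyp2d10 (log2 fold change 2.79 ± 0.46, SE, adjusted p = 0.0451 by edgeR), Cyp2s1 (1.36 ± 0.24, adjusted p = 0.035) and Cyp3a13 (1.04 ± 0.24, adjusted p = 0.0486). Cyp2d10 was at 62.2, 56.4, 79.7 and 5.32 CPM and Cyp2s1 at 72.2, 68.4, 82.3 and 18.1 CPM, so replicate 4 lay within the Vehicle range and the other 3 above it. Without MEKi 0.3 replicate 4, 10 genes were called, all higher. The share of all genes called in that fit is not given here, so the 10 are not shown to be particular to P450 genes. Replicate 4 was the lowest of its group in 18 of the 23 P450 genes with at least 5 CPM in some group. Its surface colonocyte markers summed to 2130 CPM against 3720 to 4470 CPM in the others. Other markers departed in replicate 4 too. Neutrophil markers summed to 602 CPM against 55 to 167 CPM in the others, and T cell markers to 118 against 81 to 85.6 CPM. Smooth muscle markers summed to 1400 against 2440 to 3270 CPM. The part of any of these cells in the P450 levels was not tested.

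The antibody to TNF was compared with its Isotype control. None of the 31 tested genes passed in edgeR, where 0.0203% of all genes changed, and 7 had an unadjusted p under 0.05. DESeq2 called 1 and limma-voom none. The 0.0203% is for the adjusted edgeR test only, with no such share given for the unadjusted p or the other tools. Leaving out the 4 libraries of unsettled name also gave 0. Cyp2d10 was at 9.51, 35, 10.6 and 89.9 CPM after anti-TNF and Cyp2f2 at 1.58, 11.1, 2.47 and 105 CPM. Cyp2c55 was at 0, 0.119, 0.235 and 139 CPM, against 0, 0, 0.173 and 0.0918 CPM in Isotype. The group held 1063 counts against 2 in Isotype, a ratio of 578 (95% counting interval 160 to 4780) that rests on replicate 4. Replicate 4 was thus within the range of Normal for Cyp2c55 and the other 3 were not. The ranges of anti-TNF and Isotype overlapped for each of the 31 genes, and the share of all genes with such overlap is not given here. Surface colonocyte markers summed to 5460 CPM in anti-TNF replicate 4 and 2350 to 3280 CPM in the other 3. Krt20, 1 of these markers, went the other way, at 1090 CPM against 1490 to 1630 CPM. Neutrophil markers summed to 40.2 CPM in replicate 4 against 108 to 450 CPM, and smooth muscle markers to 4040 against 1700 to 2260 CPM. The part of any of these cells in the P450 levels was not tested.

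The effect of MEKi 1 over Vehicle and that of anti-TNF over Isotype were compared as a difference of effects. None of the 31 genes passed in edgeR, none had an unadjusted p under 0.05, and 0.0135% of all genes changed. DESeq2 called 0 and limma-voom 3, and edgeR called 0 without the 4 libraries of unsettled name. The fitted differences ran from -4.3 (Cyp2c55) to 2.79 (Cyp2c68) on the log2 scale, and the smallest unadjusted p was 0.0661.

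The treated groups were also set against Normal. The number of genes called depends on the spread between libraries and does not measure distance from Normal. The median log2 fold change of the tested P450 genes was -0.80 in MEKi 1 and -1.21 in anti-TNF, against 0.01 and 0.00 for all genes. Fold changes were negative for 28 genes and positive for 3 in MEKi 1, and for 27 and 4 in anti-TNF. In MEKi 1, 2 of 31 tested genes differed, Cyp4f40 higher and Cyp2c69 lower, where 12.8% of all genes did, 8.06% higher and 4.79% lower. Leaving out replicate 2 of either group gave 0, and leaving out Normal replicate 1, 3 or 4 or MEKi 1 replicate 4 gave 1. In anti-TNF, 8 differed, 2 higher and 6 lower, where 22.4% of all genes did, 12.5% higher and 9.89% lower. The lower genes were Cyp27a1, Cyp2c68, Cyp2c69, Cyp2d10, Cyp2d11 and Cyp2d22, and the higher ones Cyp4f18 and Cyp4f40. The count became 26 without anti-TNF replicate 4, 2 without Normal replicate 4 or any of the other 3 anti-TNF libraries, 4 without Normal replicate 3 and 5 without Normal replicate 1. None were called without the 4 libraries of unsettled name, a fit that kept only anti-TNF replicates 3 and 4. For the fits against Normal that left out libraries, the share of all genes called is not given. The summed P450 level was 1129 ± 426 CPM in MEKi 1, 963.4 ± 366 CPM in MEKi 0.3, 953.7 ± 541 CPM in anti-TNF and 591.2 ± 164 CPM in Isotype (SD, n = 4 in each).

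Genes that work with P450 enzymes were given from lists. In Vehicle against Normal, where 46.4% of all genes changed, 1 of 8 redox partners and haem supply genes rose and 3 fell, a share near that of all genes. Alas1, the rate-limiting enzyme of haem synthesis, rose by 1.43 ± 0.19 on the log2 scale, while the P450 reductase gene Por had a log2 fold change of -0.31 ± 0.16 (SE) and did not pass. Of 15 transcriptional regulators 1 rose and 9 fell. The fatty acid receptor Ppara changed by -3.91, the nuclear receptor Nr5a2 by -2.39 and the vitamin D receptor Vdr by -1.59 on the log2 scale. In MEKi 1 against Vehicle, where 10.6% of all genes changed, 4 of the 15 regulators rose: Ppara (2.84), Nr5a2 (1.80), Vdr (1.33) and Hnf4a (0.55).

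The counts in neighbouring pathways stand against the same 46.4% of all genes changed, and none of these lists was tested as a set. Here 2 of 3 tested epoxide hydrolases fell in Vehicle against Normal, with log2 fold changes of -2.68 for Ephx2 and -0.95 for Ephx1. Of 8 tested genes of retinoic acid handling 3 fell, among them Aldh1a1, which makes retinoic acid, at -2.36. Of 8 tested genes of oxysterol and bile acid handling 3 rose, among them Ch25h, the cholesterol 25-hydroxylase, at 1.76. Of 5 tested genes of steroid handling 1 rose and 3 fell, with Hsd11b1, which regenerates active glucocorticoid, at 1.87 and Hsd11b2, which inactivates it, at -2.76. Of 3 P450 genes named outside the pattern, the prostacyclin synthase Ptgis changed by -1.77 and the thromboxane synthase Tbxas1 by 1.81, and Cyp51 did not pass.

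The start regions of the Cyp2c genes were searched for the binding core of HNF4, a nuclear receptor of liver and gut epithelium, spelled CAAAGTCCA and read on both strands. RefSeq promoter windows (GRCm38.p6, 250 bases before to 50 after the start) held it in 156 of 32851 cases, or 0.475%. Of the 73 P450 genes with a window, 9 held it: Cyp2c40, Cyp2c65, Cyp2c67, Cyp2c68, Cyp2c69, Cyp2c70, Cyp3a11, Cyp3a16 and Cyp8b1. Of these, Cyp2c65, Cyp2c70, Cyp3a11, Cyp3a16 and Cyp8b1 were not tested, and Cyp3a11 and Cyp3a16 had 0 counts in all libraries. Many genes that fell have a window without the core, among them Cyp2d9, Cyp2d10, Cyp2d11, Cyp2d26, Cyp2e1, Cyp2f2, Cyp2s1, Cyp3a13 and Cyp4f13. Cyp2c40, Cyp2c67, Cyp2c68 and Cyp2c69 are similar gene copies, so the 9 are not independent matches. The 250 bases before the start are shown for 2 of the genes that fell and hold the core, and for Cyp2c55, which fell furthest and has no match. Capitals mark CAAAGTCCA or, in Cyp2c55, TATAAA, which 13.6% of all windows and 31 of the 73 P450 genes hold. Also searched was the xenobiotic response element core, GCGTG, held by 32.4% of all windows and 16 of the 73 P450 genes.
Cyp2c68 (chr19:39741102-39741351, minus strand): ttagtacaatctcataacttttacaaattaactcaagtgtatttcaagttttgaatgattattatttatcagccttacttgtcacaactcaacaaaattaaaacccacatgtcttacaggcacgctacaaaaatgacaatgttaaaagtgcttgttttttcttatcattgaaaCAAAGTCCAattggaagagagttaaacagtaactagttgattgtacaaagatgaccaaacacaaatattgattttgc
Cyp2c69 (chr19:39886770-39887019, minus strand): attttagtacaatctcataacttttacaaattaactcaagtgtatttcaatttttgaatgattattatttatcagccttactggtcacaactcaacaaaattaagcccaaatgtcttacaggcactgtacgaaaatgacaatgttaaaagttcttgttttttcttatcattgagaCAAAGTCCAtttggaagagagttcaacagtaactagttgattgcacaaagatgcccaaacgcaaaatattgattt
Cyp2c55 (chr19:39006769-39007018, plus strand): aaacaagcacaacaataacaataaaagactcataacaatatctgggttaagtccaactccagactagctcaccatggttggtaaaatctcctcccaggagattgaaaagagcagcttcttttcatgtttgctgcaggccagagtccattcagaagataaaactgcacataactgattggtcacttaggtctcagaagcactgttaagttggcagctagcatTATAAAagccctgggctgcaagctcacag

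A match describes the letters of a window only, and a part of HNF4 in the P450 result was not tested. Hnf4a itself was at 1030, 808, 916 and 951 CPM in Normal and at 608, 640, 643 and 473 CPM in Vehicle, without overlap (log2 fold change -0.65 ± 0.15, SE, edgeR adjusted p = 0.0014).

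Of the 63 P450 genes that were not tested, 27 had 0 counts in all 24 libraries and 36 had some. The highest group mean among them was 2.82 CPM, that of Cyp4b1 in Normal, and 58 of the 63 stayed under 1 CPM in every group. They include both Cyp1a genes, with 14 counts in all, Cyp1b1 with 15, the 5 Cyp2b genes with 11 and the 5 Cyp4a genes with 2. Cyp24a1, which degrades active vitamin D, had 2 counts in all. None of the 63 was tested, and some had few counts but separate ranges: Cyp4b1 was at 1.3 to 4.36 CPM in Normal (47 counts) and 0.189 to 1.03 CPM in Vehicle (11 counts). Cyp2c65 was at 1.01 to 3.04 CPM (40 counts) and 0 to 0.412 CPM (4 counts).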

How the data were processed

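The authors sequenced poly(A) RNA of mouse colon with Ion Torrent, per the labels' protocols. Each deposited file holds 1 library's raw count for every gene symbol. The genome build was mm10, per the submitters' processing notes. Which aligner and counting tool were used, and whether strand was considered, is not given in the sources used here. Counts were used as deposited. Groups and replicate numbers came from the sample each file belongs to.

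Tests used edgeR 4.0.16 (R 4.3.3) with its filterByExpr by group and TMM scaling, a robust quasi-likelihood fit of all 24 libraries and F tests, with Benjamini-Hochberg adjustment over 14773 genes per comparison and a threshold of 0.05. SEs were derived from the fold change and its F value, as |log2 fold change| over the root of F. CPM values use TMM factors. Where a group held 1 to 3 counts a ratio with a 95% exact counting interval is given, which covers counting error only. Library totals were 3052940 to 10587555 counts. On simulated counts for Vehicle against Normal with 14773 genes, edgeR recovered 54% of genes changed by 1 on the log2 scale and 98% of those changed by 3. Chi-square values for pairs of replicates, 5.38 to 59.9 per gene, showed no library deposited more than once.

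All P450 genes passing the filter could be named, with values per library for those with a group mean of at least 5 CPM. Others are named where called, and up to 3 genes of each pathway list by smallest p in Vehicle against Normal. Por, Hnf4a, Hsd11b1, Cyp51, untested genes other than Cyp4b1, and the marker genes given with values were named after their values were seen. A result for 1 gene of the retinoic acid list is not reported here. The genes and lists were chosen with earlier results of these data known. Alternatives were DESeq2 1.42.0, limma-voom (limma 3.58.1), other scaling factors and filters, a transcript length offset, fits of the groups compared, the replicate block, the other library names and leaving out each library. Leaving out the 4 antibody libraries or the 2 rich in pancreas transcripts was chosen after seeing the data.

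Replicate numbers recur in every group, and the labels give no shared origin for them. Between MEKi 0.3 and Vehicle, deviations of same-numbered libraries correlated at 0.126, 0.125, 0.167 and 0.184, each over the threshold of 0.1, so these were treated as paired. In the other comparisons at least 1 pair was under it. For anti-TNF and Isotype the values were 0.216, 0.0862, 0.142 and 0.342. Libraries of different replicate number were not compared in this way. Exon lengths, coding windows and positions came from GENCODE M21, promoter windows from RefSeq.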

Additional observations from a re-analysis of the deposited data

Results flagged for a closer look

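In groups of 4 libraries, a library was taken to stand apart where its gap to its nearest neighbour, as a share of the group's range, exceeded Dixon's 95% critical value, which chance reaches in about 1 of 20 groups. Of 138 combinations of gene and group checked, 5 met it, which is no more than that rate would give. All 5 lay in anti-TNF replicate 4, so they are not independent flags. That library held 139 CPM of Cyp2c55, 3.79 CPM of Cyp2c69, 92 CPM of Cyp2d12, 105 CPM of Cyp2f2 and 35.5 CPM of Cyp3a13. It was the highest of its group in 17 of the 23 P450 genes with at least 5 CPM in some group. Both namings of the libraries agree on it.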

How the results depend on the processing

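The count for Vehicle against Normal stayed at 24 to 27 genes when any 1 library was left out, and that for Isotype against Normal at 23 to 27. The same ranges were 0 to 10 for MEKi 0.3 against Vehicle, 0 to 16 for MEKi 1 against Vehicle, 0 for anti-TNF against Isotype and for the difference of effects, 0 to 3 for MEKi 1 against Normal and 2 to 26 for anti-TNF against Normal. DESeq2 gave 3 for MEKi 0.3 and 16 for MEKi 1 against Vehicle, 1 for anti-TNF against Isotype, and 4 for MEKi 1 and 14 for anti-TNF against Normal. Limma-voom gave 14, 21, 0, 5 and 26 for these, and 3 for the difference of effects. Without a filter MEKi 1 against Vehicle had 3, and without the pancreas-rich libraries 1. A fit of only the groups compared gave 5 for MEKi 1 and 5 for anti-TNF against Normal. The replicate block over all libraries gave 5 for MEKi 1 against Vehicle, 1 for MEKi 1 against Normal and 4 for anti-TNF against Normal. Of all genes it called 7.78%, 11% and 20.6% in these comparisons. In the groups compared alone the replicate block gave 3 of 21 tested P450 genes for MEKi 0.3 against Vehicle, where 2.97% of all genes were called. It gave 7 of 27 for MEKi 1 against Normal (8.87% of all genes) and 14 of 29 for anti-TNF against Normal (20.6%). Elsewhere the block kept the count within 1.5 times. Libraries on which both namings agree gave 3 for Isotype, 0 for MEKi 1 and 0 for anti-TNF against Normal, and 0 for anti-TNF against Isotype. They are only replicates 1 and 2 of Normal and Isotype and replicates 3 and 4 of MEKi 1 and anti-TNF. The agreeing libraries include none of Vehicle or MEKi 0.3, so the comparisons that use those groups could not be fitted. Without the 4 antibody libraries anti-TNF against Normal had 0, with only anti-TNF replicates 3 and 4 left in that group. The cause of these shifts was not tested. For the other alternative fits of this section the share of all genes called is not given, so their counts are not shown to be particular to P450 genes. Scaling by RLE factors or library totals moved the median of all genes by under 0.05 on the log2 scale.

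With the series table's names, which go against the T cell counts, Vehicle, Isotype, MEKi 1 and anti-TNF against Normal and MEKi 1 against Vehicle each had 0 genes, and 29 fold changes turned sign. In Vehicle against Normal the log2 values became 0.065 (Cyp27a1), 0.041 (Cyp2c40), 0.55 (Cyp2c44), 0.13 (Cyp2c55), 0.43 (Cyp2c67), 0.16 (Cyp2c69), 0.16 (Cyp2d10), 0.27 (Cyp2d11), 0.43 (Cyp2d12), 0.20 (Cyp2d26), 0.23 (Cyp2d9), 0.035 (Cyp2e1), 0.41 (Cyp2f2), -0.13 (Cyp2j6), 0.14 (Cyp3a13), 0.20 (Cyp4f13), 0.11 (Cyp4f14), 0.25 (Cyp4f16) and -0.14 (Cyp4f40). In MEKi 1 against Vehicle they became -1.66 (Cyp2c44), -1.76 (Cyp2c67), -1.53 (Cyp2c68), -1.75 (Cyp2d10), -2.08 (Cyp2d12), -0.93 (Cyp2d22), -1.67 (Cyp2d9), -2.25 (Cyp2f2), -0.31 (Cyp2s1) and -0.47 (Cyp4f13).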
